A study of Mus musculus with 6 samples.

Results

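The genes described here are 45 astrocyte genes, read in 6 RNA libraries of mouse brain. They were chosen by name: 36 genes of astrocyte identity and resting function, called homeostatic here, and 9 genes known to rise when astrocytes become reactive (Gfap, Vim, Cd44, Osmr, Serpina3n, Cp, S1pr3, Mt1 and Mt2). All 45 were found among the 55604 genes of the count tables and had at least 1 count, and 40 had enough counts to be tested (34 homeostatic and 6 reactive). The 4-AP group is 3 libraries that came from C57BL/6 mice given 4-aminopyridine (4-AP, a blocker of voltage-gated potassium channels) by intraperitoneal injection to induce status epilepticus, a prolonged seizure. The 3 control libraries came from untreated C57BL/6 mice. Both groups' total RNA had been digested with RNase R, an exonuclease that removes linear RNA and spares circular RNA. Gene counts add up linear and circular RNA of a gene. The labels name the tissue only as brain, and the age and sex of the mice, the brain region and the time from injection to sampling are not stated there. Nothing in the labels says that the samples of a group came from separate mice, so p-values measure the spread between these samples, which may be technical.

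Astrocytes take up potassium, water and transmitters around synapses, couple to each other through gap junctions and supply lipid carriers to neurons. After injury or seizures they can become reactive, a state known for the intermediate filaments Gfap and vimentin, for cytokine receptors and for acute-phase and metal-binding proteins. The series' title concerns astrocyte polarization in epilepsy, and 4-AP brain was compared with control brain.

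Total counts ran from 1507882 to 2721287 in the 4-AP libraries and from 2355610 to 3409055 in the controls, and the 45 genes took 7736 to 21279 of them. Ribosomal RNA genes and 5 very abundant loci, among them Lars2, held 21.0% to 37.2% of the counts in 4-AP brain and 10.02% to 23.6% in control brain. Levels are given as scaled CPM, in which the library size is corrected by trimmed-mean scaling, so that this share does not lower the other genes as a whole. The share went largely with the groups, although control replicate 3 (23.6%) lay above 4-AP replicate 2 (21.0%). Whether what raised it also changed single genes unequally was not tested. Where levels of different genes are compared they are divided by the gene's exon length. A count of 3 corresponded to 0.778 to 2.19 CPM, depending on the library.

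Mt3, Mt2 and Mt1 are neighbouring metallothionein genes on chromosome 8, whose small proteins bind zinc and copper: Mt3, the brain form, is among the homeostatic genes, and Mt2 and Mt1 are among the reactive genes. Their RefSeq promoter windows (GRCm38.p6, plus strand, 250 bases before to 50 after the gene start) are shown because metal and stress induction of this family acts through short promoter elements. Capitals mark matches to the core of the metal response element, searched as TGCACNC and TGCGCNC on both strands (a match on the minus strand reads as its reverse complement). The windows are chr8:94152357-94152656 for Mt3, chr8:94172368-94172667 for Mt2 and chr8:94178839-94179138 for Mt1.
Mt3: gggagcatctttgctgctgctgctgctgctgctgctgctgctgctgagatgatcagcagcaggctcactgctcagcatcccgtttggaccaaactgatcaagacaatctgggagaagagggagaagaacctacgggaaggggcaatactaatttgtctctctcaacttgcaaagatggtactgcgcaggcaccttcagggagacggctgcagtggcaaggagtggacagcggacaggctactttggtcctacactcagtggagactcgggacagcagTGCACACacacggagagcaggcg
Mt2: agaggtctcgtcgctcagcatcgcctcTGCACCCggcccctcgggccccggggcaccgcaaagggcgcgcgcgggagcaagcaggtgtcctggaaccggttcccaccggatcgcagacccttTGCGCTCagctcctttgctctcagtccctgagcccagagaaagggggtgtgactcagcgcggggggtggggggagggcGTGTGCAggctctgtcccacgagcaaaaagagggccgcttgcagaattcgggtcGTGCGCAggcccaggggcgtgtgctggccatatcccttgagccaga
Mt1: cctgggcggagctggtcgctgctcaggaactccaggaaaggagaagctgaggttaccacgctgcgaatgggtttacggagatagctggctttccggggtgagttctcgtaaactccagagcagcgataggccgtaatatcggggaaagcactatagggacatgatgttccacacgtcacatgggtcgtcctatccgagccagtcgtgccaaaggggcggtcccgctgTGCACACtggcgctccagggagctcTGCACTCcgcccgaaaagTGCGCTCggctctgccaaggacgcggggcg
The Mt3 window held 1 match, the Mt2 window 4 (2 on each strand) and the Mt1 window 3. At least 1 match occurred in 25.7% of 32851 RefSeq windows of this length, and at least 3 in 1.97%. A match is a description of the letters, not a measured binding site. RefSeq windows were found for 38 of the 45 members.

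Reads of astrocyte genes were plentiful in every library. Because linear RNA had been digested with RNase R, the levels describe the RNA left after digestion, not expression in the tissue. Over the 6 libraries Apoe, the main lipid carrier of the brain, averaged 435 CPM per kb of exon, above 99.7% of all tested genes. The secreted matrix protein gene Sparcl1 followed at 302, the protease inhibitor gene Cst3 at 174 and the glycolytic enzyme gene Aldoc at 173 CPM per kb. The widely used markers lay lower: Gfap at 27.5, the folate enzyme gene Aldh1l1 at 15.4, the water channel gene Aqp4 at 10.7, the gap junction gene Gja1 at 6.50 and the transcription factor gene Sox9 at 1.70 CPM per kb. Of the reactive genes, Mt1 (14.7) came after Gfap, and Vim (3.27) and Serpina3n (3.16) were lower still. The defining markers of the cell type were thus present in all 6 libraries, while most reactive members were at levels where single libraries held few reads.

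**Figure D1:**
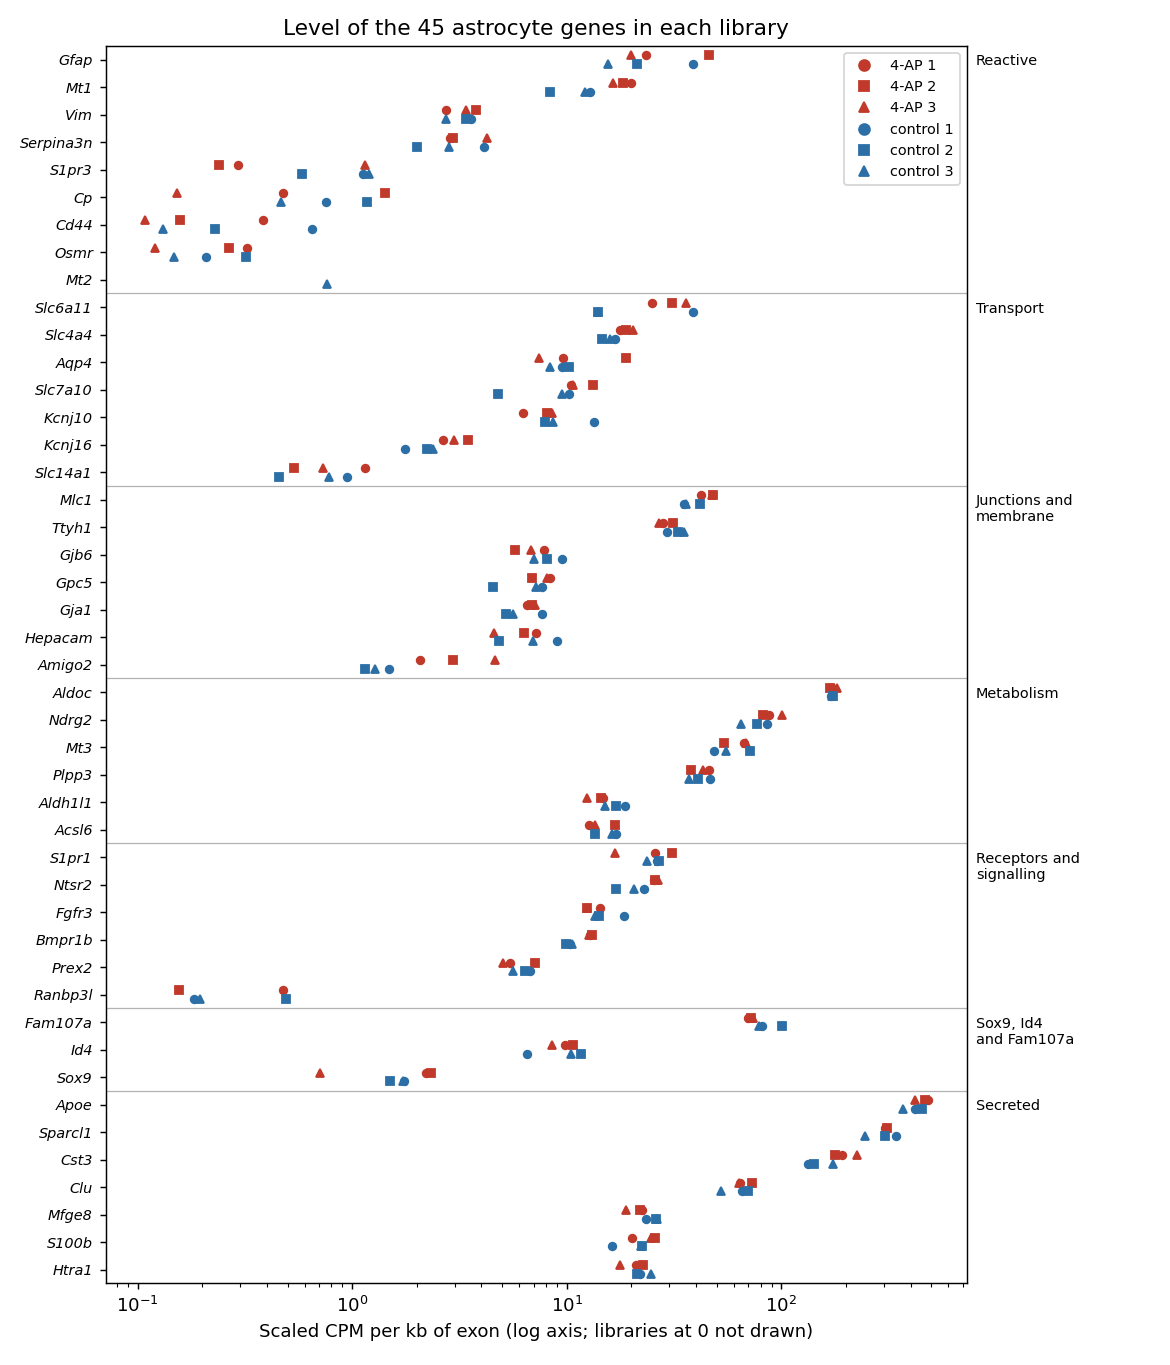
Level of each of the 45 members in each library, in scaled CPM per kb of exon on a log axis, grouped by role. Red points are the 4-AP libraries and blue points the controls, with the replicate number given by the shape. Apoe averages 435 CPM per kb over the 6 libraries and Gfap 27.5, while Mt2 shows a single point because it had a count in 1 library only.

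No member passed the test between 4-AP and control brain. Of the 40 tested, 0 were higher and 0 lower with a Benjamini-Hochberg adjusted p below 0.05 in the quasi-likelihood test of edgeR, where 0.843% of all 11388 tested genes passed (0.334% higher and 0.509% lower). Unadjusted p was under 0.05 for 4 members, as for 13.9% of all genes. DESeq2 also called 0 members, 3 of them with an unadjusted p under 0.05. The smallest adjusted p was 0.160, for Amigo2. For 30 of the 40 tested members the 95% interval of the fold change lay within 2-fold in either direction, and for 16 within 1.5-fold. Of all 11388 tested genes, 7587 and 2701 had such intervals. Among the 10 members whose interval was not within 2-fold were 5 of the 6 tested reactive genes. The intervals rest on the spread between these samples, which may be technical, so they do not bound the effect of 4-AP in mice.

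The homeostatic genes were set beside the reactive genes by their medians. The median log2 fold change was 0.10 over the 34 tested homeostatic genes and 0.09 over the 6 tested reactive genes, beside -0.0076 over all tested genes. Of the homeostatic genes 22 were above 0 and 12 below, and of the reactive genes 4 and 2. The 22 include Amigo2, which is also used as a marker of one reactive astrocyte state. With no filter on low counts the medians were 0.069 over all 36 and 0.0069 over all 9. Without 4-AP replicate 2 the reactive median turned to -0.13, and without control replicate 3 to -0.02.

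**Figure D2:**
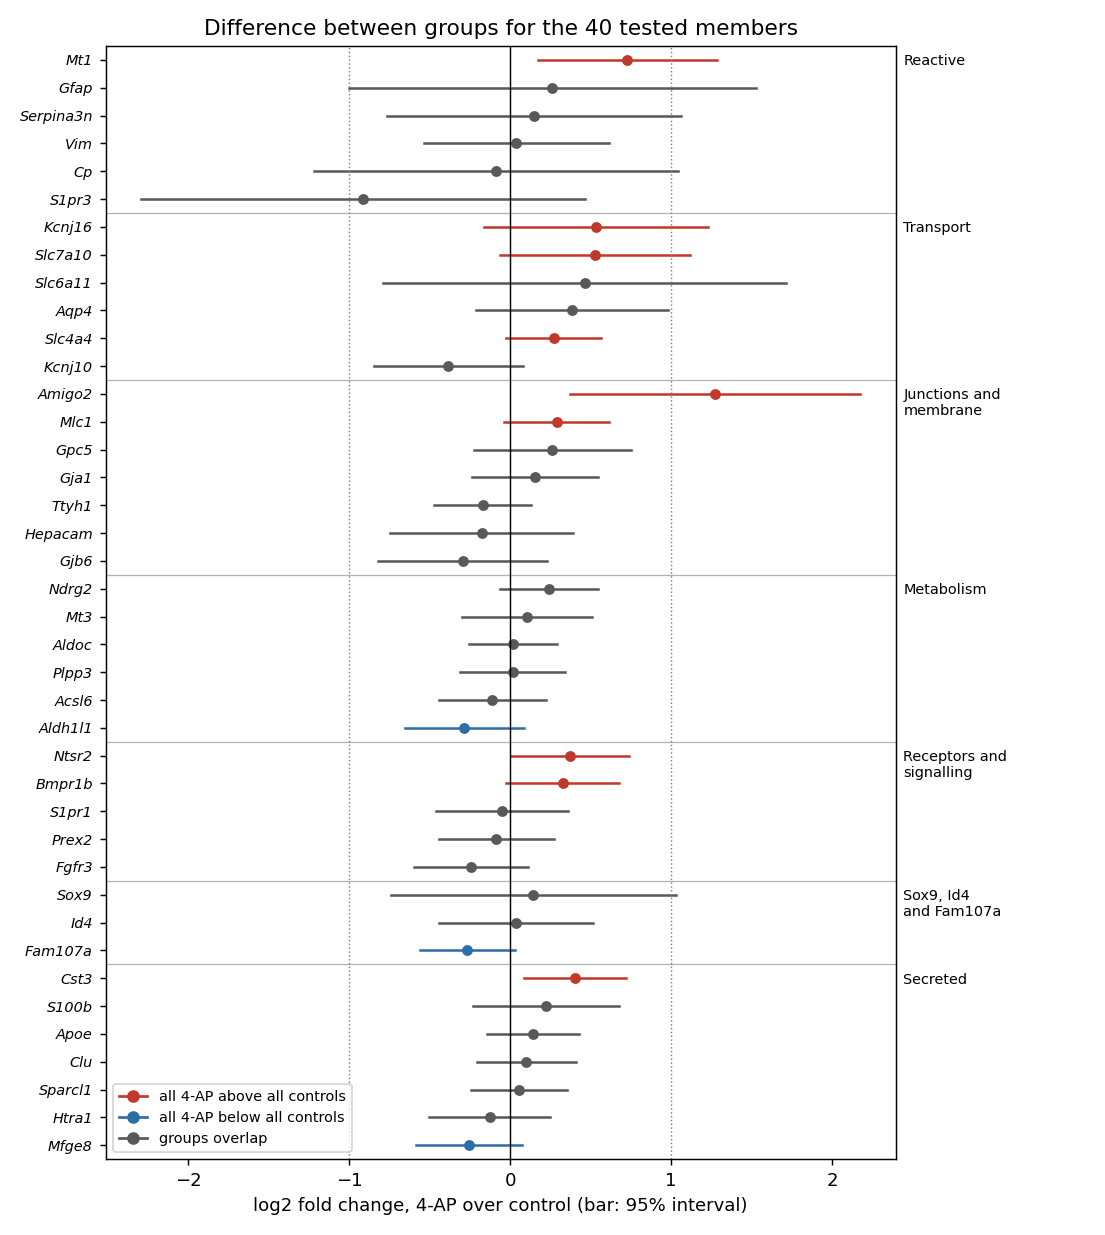
Log2 fold change of 4-AP over control with its 95% interval for the 40 tested members, grouped by role; dotted lines mark 2-fold. Red and blue mark the 9 members whose 4-AP libraries all lay above the controls and the 3 whose 4-AP libraries all lay below. Intervals are narrow for abundant genes such as Aldoc (-0.26 to 0.29) and wide for Gfap (-1.0 to 1.52).

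Summed over the class, the homeostatic genes were at 5505, 5661 and 5517 CPM in the 4-AP libraries and at 5595, 5379 and 4903 CPM in the controls. The 9 reactive genes summed to 155, 259 and 138 CPM in the 4-AP libraries and to 223, 139.8 and 112 CPM in the controls. In both groups 1 library stood above the other two, 4-AP replicate 2 and control replicate 1. These libraries also had the highest sums of the 8 oligodendrocyte markers, 4009 and 3916 CPM, where the other 4 libraries had 2553 to 3406 CPM, and the part of those cells in the reactive sums was not tested. Reactive genes made up 2.74% (Wilson 95% interval 2.42% to 3.11%), 4.38% (4.07% to 4.70%) and 2.44% (2.12% to 2.81%) of the members' counts in the 4-AP libraries. In the controls the share was 3.84% (3.57% to 4.13%), 2.53% (2.33% to 2.75%) and 2.24% (1.98% to 2.53%). The intervals cover counting error only, and the libraries of 1 group differed by more than that. Gfap alone gave 58.3% to 74.6% of the reactive counts, and without it the class summed to between 54.1 and 65.7 CPM in 4-AP and between 46.9 and 60.7 CPM in control brain. In bulk tissue, more astrocytes and more RNA per astrocyte cannot be told apart.

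**Figure D3:**
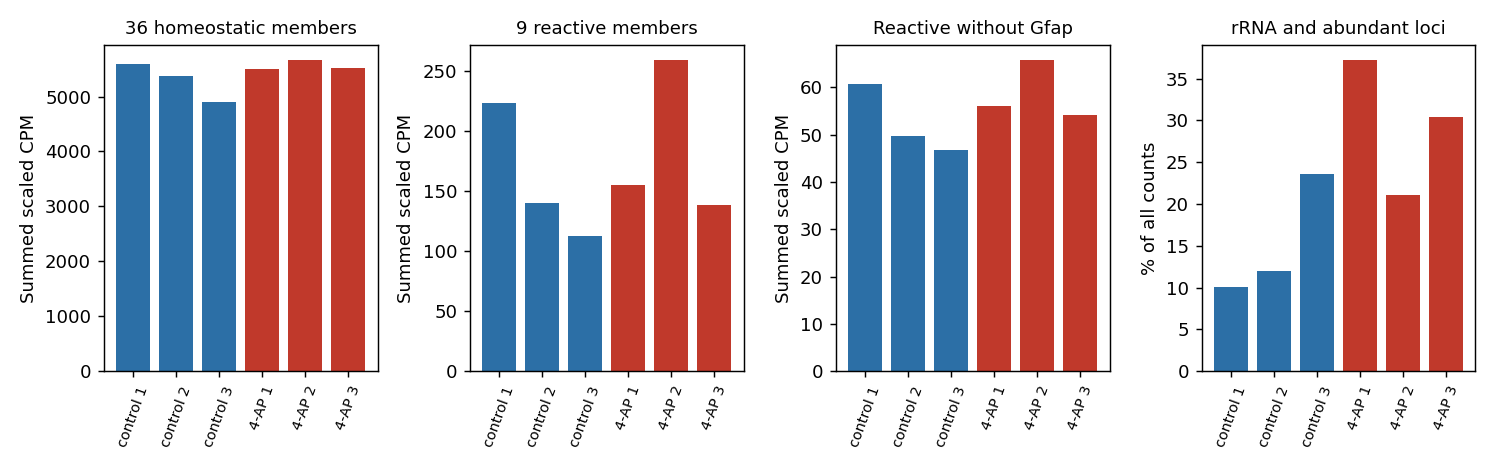
Summed scaled CPM of the 36 homeostatic members, of the 9 reactive members and of the reactive members without Gfap, and the share of all counts in ribosomal RNA genes and 5 abundant loci, by library. Blue bars are controls and red bars 4-AP libraries, on axes that start at 0. The reactive sum is highest in 4-AP replicate 2 (259 CPM) and control replicate 1 (223 CPM).

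Among the reactive genes, Gfap (chromosome 11, 102887336 to 102900912, minus strand, mm10), the intermediate filament by which reactive astrocytes are usually recognised, was at 99.1, 193 and 84.1 CPM in the 4-AP libraries and at 163, 90.0 and 65.6 CPM in the controls. The groups overlapped, with the highest and the lowest library 2.30-fold apart in 4-AP and 2.48-fold apart in control brain. The log2 fold change was 0.26 (95% interval -1.0 to 1.52; adjusted p = 0.892 by edgeR's test), and it turned to -0.19 without 4-AP replicate 2 and rose to 0.71 without control replicate 1. Vim, the vimentin gene, was at 13.0, 17.9 and 16.1 CPM in 4-AP and at 17.0, 16.1 and 12.9 CPM in control brain, a log2 fold change of 0.04 (SE 0.28). Serpina3n, an acute-phase protease inhibitor gene, was at 5.87, 6.07 and 8.77 CPM against 8.49, 4.15 and 5.80. These 2 genes overlapped between groups as well.

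Mt1 (chromosome 8, 94179082 to 94180327, plus strand) was the reactive gene with the smallest p. It was at 24.8, 22.9 and 20.5 CPM in the 4-AP libraries and at 16.03, 10.4 and 15.2 CPM in the controls, so that each 4-AP library lay above each control. The log2 fold change was 0.73 (SE 0.27, 95% interval 0.17 to 1.29; adjusted p = 0.199 by edgeR's test), and it stayed between 0.56 and 0.87 with each library left out in turn. Its neighbour Mt2, with the 4 promoter matches shown above, had 0 counts in 5 libraries and 1 in control replicate 3. In the annotation 73.5% of the exonic bases of Mt2 are shared with Gm45774, a gene on the opposite strand that had 1 to 6 counts per library. Without a stated strand setting, reads of these overlapping genes cannot be told apart, so the count of Mt2 is not read as absence of its RNA. Of the other members, Slc7a10 (17.9%), Fgfr3 (13.9%) and Aldh1l1 (13.4%) shared the most exonic bases with other genes. The effect on their counts was not tested. Mt3 (chromosome 8, 94152607 to 94154146), the homeostatic member of the family, was at 71.7, 57.5 and 73.1 CPM against 51.5, 76.0 and 58.9 and overlapped between groups (log2 0.10, SE 0.19).

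The remaining reactive genes carried few reads. Cp, the copper-binding ferroxidase ceruloplasmin, was at 4.56, 13.6 and 1.46 CPM in 4-AP and at 7.23, 11.2 and 4.46 CPM in control brain; its log2 fold change of -0.09 (SE 0.53) fell to -1.31 without 4-AP replicate 2. S1pr3, a sphingosine-1-phosphate receptor gene, was at 1.304, 1.07 and 5.12 CPM against 5.03, 2.59 and 5.36, with a log2 fold change of -0.91 (SE 0.66) that was -1.83 without 4-AP replicate 3 and -0.40 without 4-AP replicate 2. The hyaluronan receptor gene Cd44 had 8 counts in 4-AP brain and 22 in control brain, and the oncostatin M receptor gene Osmr had 17 and 27. These 2 genes and Mt2 were too low to test.

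Of the homeostatic genes, those for transport carry the potassium, water, bicarbonate and transmitter clearance of astrocytes. Slc4a4, the sodium bicarbonate cotransporter, was at 192, 205 and 220.0 CPM in 4-AP and at 182, 158 and 172 CPM in control brain (log2 0.27, SE 0.14; adjusted p = 0.428 by edgeR's test). Slc7a10, a neutral amino acid transporter that moves D-serine and glycine, was at 22.2, 27.9 and 22.7 CPM against 21.7, 10.1 and 20.1 (log2 0.53, SE 0.28). The inward rectifier potassium channel gene Kcnj16 was at 10.4, 13.6 and 11.7 CPM against 6.91, 8.82 and 9.37 (log2 0.53, SE 0.33). In these 3 genes each 4-AP library lay above each control. Its partner channel gene Kcnj10, which encodes Kir4.1, was at 33.9, 43.6 and 46.1 CPM against 72.3, 42.8 and 46.4 (log2 -0.38, SE 0.22). Control replicate 1 was the high library there, and without it the value was -0.10.

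Aqp4, the water channel of astrocyte endfeet, was at 60.0, 118 and 46.1 CPM in the 4-AP libraries and at 59.1, 64.1 and 52.2 CPM in the controls. The 4-AP mean rested on replicate 2, which also had the highest Gfap and Cp: the log2 fold change was 0.38 (SE 0.28; adjusted p = 0.606 by edgeR's test) with it and -0.12 without it. That library also held 55.0 CPM of the choroid plexus gene Ttr, against 5.22 and 7.31 CPM in the other 4-AP libraries and 0 to 3.12 CPM in the controls. The 9 choroid plexus and ependymal markers summed to 85.0 CPM there, to 49.7 CPM in 4-AP replicate 3 and to 10.4 to 21.0 CPM elsewhere. 4-AP replicate 3 had the lowest Cp (1.46 CPM) and the lowest Aqp4 (46.1 CPM) of all libraries. The part of these markers in the Cp and Aqp4 values was not tested. The urea transporter gene Slc14a1, with 17 counts in 4-AP and 26 in control brain, was not tested.

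Slc6a11 (chromosome 6, 114131241 to 114249952, plus strand), the GABA transporter GAT-3, varied the most between controls of all tested members. It was at 126, 157 and 181 CPM in the 4-AP libraries and at 195, 70.3 and 70.5 CPM in the controls. Control replicate 1 lay above every 4-AP library, and the other two controls lay below every one. With all libraries the log2 fold change was 0.46 (SE 0.48; adjusted p = 0.777 by edgeR's test); without control replicate 1 it was 1.14 and passed the test (adjusted p = 0.00237). This was the 1 call of a member in any of the 6 fits that left out 1 library. Without either of the other controls it was at 0.22 or 0.23.

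Gap junction and membrane genes connect astrocytes and shape their endfeet. The connexin 43 gene Gja1 was at 67.1, 70.4 and 73.1 CPM in 4-AP and at 78.3, 53.4 and 57.6 CPM in control brain, a log2 fold change of 0.15 (SE 0.19). The connexin 30 gene Gjb6 was at -0.30 (SE 0.25). Mlc1, whose protein forms a membrane complex with the product of Hepacam, was at 119, 134 and 133 CPM against 98.1, 117 and 101 (log2 0.29, SE 0.16; adjusted p = 0.443 by edgeR's test), each 4-AP library above each control. Hepacam itself was at -0.18 (SE 0.27), the chloride channel family gene Ttyh1 at -0.17 (SE 0.14) and the glypican gene Gpc5 at 0.26 (SE 0.23), all with overlapping groups.

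Amigo2 (chromosome 15, 97244125 to 97247287, minus strand), a cell adhesion gene that is also used as a marker of one reactive astrocyte state, had the highest log2 fold change of the tested members. Its levels were 6.52, 9.29 and 14.6 CPM in the 4-AP libraries and 4.71, 3.63 and 4.02 CPM in the controls, with no overlap. The log2 fold change was 1.27 (SE 0.43, 95% interval 0.37 to 2.17; adjusted p = 0.160 by edgeR's test) and ran from 0.97 without 4-AP replicate 3 to 1.49 without 4-AP replicate 1. It rests on 56 counts in 4-AP and 38 in control brain. Amigo2 is also expressed by neurons, so its level in brain tissue is not that of astrocytes alone.

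Of the 6 metabolic genes 4 were above 0 and 2 below, and all 6 had a 95% interval within 2-fold. Aldoc was at 562, 547 and 595 CPM in 4-AP and at 556, 569 and 559.6 CPM in control brain, a log2 fold change of 0.02 (SE 0.13) with a 95% interval of -0.26 to 0.29. The lipid phosphatase gene Plpp3 was also at 0.02 (SE 0.16), the acyl-CoA synthetase gene Acsl6 at -0.11 (SE 0.16) and Ndrg2 at 0.24 (SE 0.15). Aldh1l1, a pan-astrocyte marker, was at 66.5, 65.0 and 56.3 CPM against 84.5, 76.25 and 68.3, so that each 4-AP library lay below each control (log2 -0.28, SE 0.18; adjusted p = 0.517 by edgeR's test).

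Of the receptor and signalling genes, the neurotensin receptor gene Ntsr2 was at 79.5, 80.4 and 83.3 CPM in 4-AP and at 71.3, 52.9 and 64.3 CPM in control brain (log2 0.37, SE 0.18; adjusted p = 0.358 by edgeR's test). The BMP receptor gene Bmpr1b was at 76.3, 77.9 and 76.0 CPM against 61.9, 59.1 and 62.9 (log2 0.33, SE 0.17; adjusted p = 0.417, same test). Both had each 4-AP library above each control, and the libraries of Bmpr1b differed by 1.02-fold within 4-AP and 1.06-fold within control brain. The FGF receptor gene Fgfr3 was at -0.24 (SE 0.17), the sphingosine-1-phosphate receptor gene S1pr1 at -0.05 (SE 0.20) and Prex2, which encodes a Rac exchange factor, at -0.09 (SE 0.17). Ranbp3l, with 8 counts in 4-AP and 20 in control brain, was not tested.

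Sox9, a transcription factor that maintains astrocyte identity, was at 9.13, 9.65 and 2.92 CPM in 4-AP and at 7.23, 6.22 and 7.14 CPM in control brain (log2 0.14, SE 0.43). The low value of 4-AP replicate 3 stands for 4 counts. Id4, an inhibitor of basic helix-loop-helix factors, was at 0.04 (SE 0.23). Fam107a, a stress-inducible gene whose protein binds actin, was at 271, 281 and 287 CPM against 313, 389 and 306, each 4-AP library below each control (log2 -0.27, SE 0.14; adjusted p = 0.427 by edgeR's test).

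Of the secreted proteins, Cst3 (chromosome 2, 148871722 to 148875692, minus strand), the cystatin C gene, was at 242, 224 and 285 CPM in 4-AP and at 168, 179 and 221 CPM in control brain. The groups touched closely, the lowest 4-AP library (224) lying just above the highest control (221). The log2 fold change was 0.40 (SE 0.15, 95% interval 0.08 to 0.72; adjusted p = 0.220 by edgeR's test). Mfge8, which encodes a phosphatidylserine-binding bridge for phagocytosis, was at 105, 103 and 88.4 CPM against 109.7, 122 and 124, each 4-AP library below each control (log2 -0.26, SE 0.16; adjusted p = 0.512, same test). Apoe was at 0.14 (SE 0.14), Sparcl1 at 0.05 (SE 0.14), the clusterin gene Clu at 0.10 (SE 0.15), the calcium-binding protein gene S100b at 0.22 (SE 0.22) and the serine protease gene Htra1 at -0.13 (SE 0.18), with overlapping groups.

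Altogether 12 of the 40 tested members had groups that did not overlap, or 30.0% beside 18.8% of all tested genes. Of these, 9 were higher in 4-AP brain (Amigo2, Mt1, Cst3, Ntsr2, Bmpr1b, Slc4a4, Slc7a10, Mlc1 and Kcnj16), where 8.36% of all genes were, and 3 were lower (Aldh1l1, Fam107a and Mfge8), where 10.4% of all genes were. None of these 12 changed sign under the 7 alternatives that kept all libraries. None passed the test, so the count is a description.

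The other genes of the cell type came from a list of 37 astrocyte genes that are not members, of which 34 could be tested. Of these 34, 1 rose (Itih3) and 1 fell (Slc1a2), where 0.334% of all tested genes rose and 0.509% fell. The median log2 fold change of the 34 was 0.07. Groups did not overlap for 13 (38.2%, beside 18.8% of all tested genes), 8 of them higher and 5 lower. Itih3 (chromosome 14, 30908572 to 30923760, minus strand), a hyaluronan-binding inter-alpha-trypsin inhibitor chain gene found in astrocytes outside the telencephalon, was at 28.0, 42.9 and 67.2 CPM in 4-AP and at 19.2, 10.4 and 10.3 CPM in control brain. Its log2 fold change was 1.77 (SE 0.31; adjusted p = 0.0131 by edgeR's test). It no longer passed once 4-AP replicate 3 was left out (1.43, adjusted p = 0.0515), nor once control replicate 2 (1.62, adjusted p = 0.0697) or 3 (1.64, adjusted p = 0.0671, same test) was. Slc1a2, the main glutamate transporter gene, was at 1138, 1223 and 1035 CPM against 1703, 1782 and 1758, or -0.63 on the log2 scale (SE 0.14; adjusted p = 0.0328, edgeR). It no longer passed when replicate 1 or 3 of 4-AP or replicate 2 or 3 of the controls was left out (adjusted p of 0.0981 to 0.210), while its log2 fold change stayed between -0.66 and -0.57 in all 6 such fits.

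Genes known to mark astrocytes of different brain regions were set beside the members after their values were seen. Agt, the angiotensinogen gene of astrocytes outside the telencephalon, was at 42.4, 42.2 and 73.1 CPM in 4-AP and at 34.9, 3.37 and 8.03 CPM in control brain. As for Slc6a11, control replicate 1 stood above the other two controls. The log2 fold change of Agt was 1.74 (SE 0.90; adjusted p = 0.515 by edgeR's test), and without control replicate 1 it was 3.29 (adjusted p = 5.32e-05). Agt passed in only this 1 of the 6 fits that left out 1 library. Its log2 fold change was 1.24 without control replicate 2, and adjusted p reached 0.753 in these fits (same test). Slc6a9, a glycine transporter gene, was also highest in control replicate 1, with 39.9 CPM where the other controls had 14.5 and 23.2. In the 4-AP libraries Slc6a9 was at 23.5, 18.2 and 28.5 CPM. Its groups overlapped, and its log2 fold change of -0.17 (SE 0.32) had the opposite sign to that of Agt. The forebrain transcription factor gene Lhx2 was at 30.0, 22.2 and 19.0 CPM in 4-AP and at 38.0, 33.7 and 38.8 CPM in control brain (log2 -0.63, SE 0.23; adjusted p = 0.182), and Mfge8, which is higher in telencephalic astrocytes, lay on the same side. Both of them had groups that did not overlap.

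**Figure D4:**
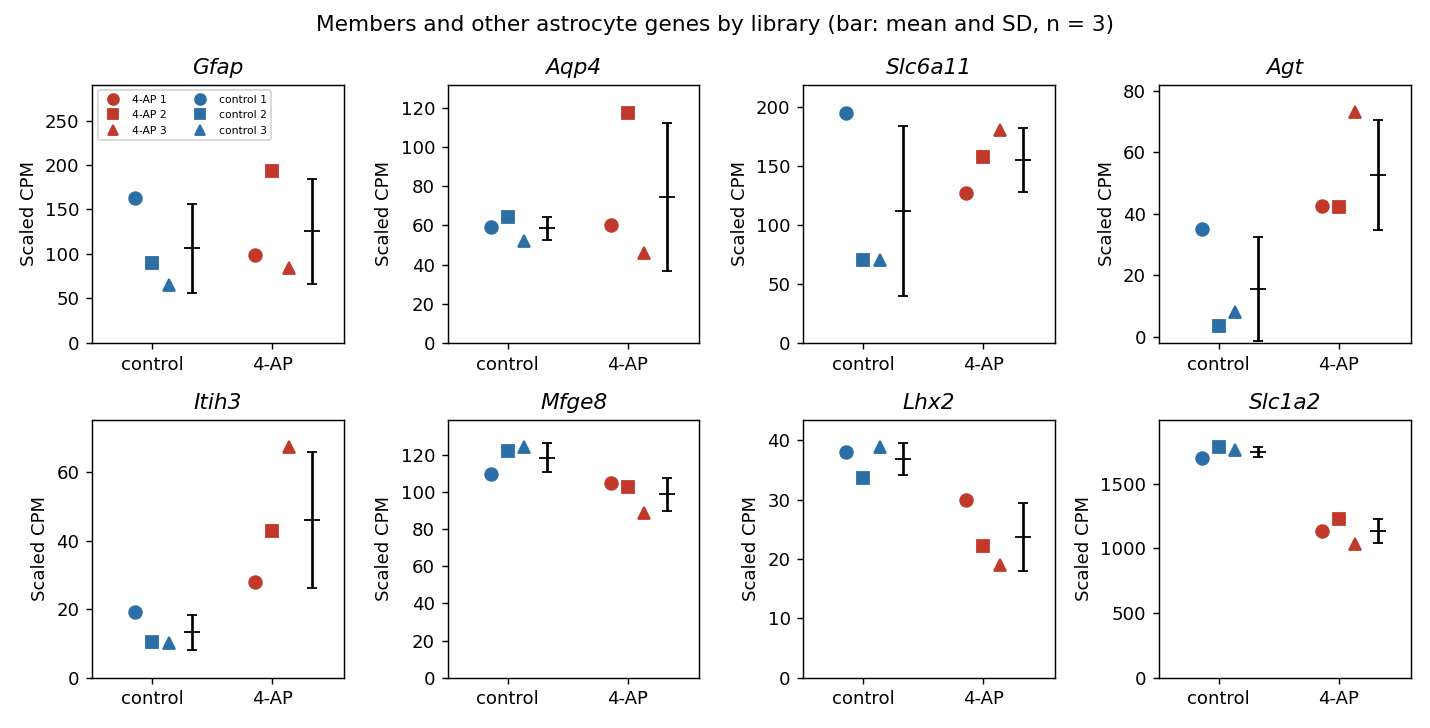
Scaled CPM by library for 4 members (Gfap, Aqp4, Slc6a11 and Mfge8) and 4 other astrocyte genes (Agt, Itih3, Lhx2 and Slc1a2), with the mean and SD of each group (n = 3). Shapes give the replicate number. Control replicate 1 stands above the other controls for Gfap (163 CPM), Slc6a11 (195 CPM) and Agt (34.9 CPM), and 4-AP replicate 2 above the other 4-AP libraries for Gfap (193 CPM) and Aqp4 (118 CPM).

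Markers of neurons of different regions moved with the groups in these libraries. The 10 hypothalamic neuron genes summed to 130 to 252 CPM in 4-AP brain and to 13.2 to 22.8 CPM in control brain; 6 could be tested and all 6 rose: Gpr101 (log2 2.97), Avp, Trh, Irs4, Magel2 and Oxt, the last with 36 counts in 4-AP and 0 in control brain. The 7 cortical glutamatergic genes summed to 1263 to 1848 CPM and to 2344 to 2424 CPM. Of them 3 fell, Slc17a7 (log2 -0.79), Nrgn (-0.79) and Neurod2 (-0.96), and 0 rose. Over all tested genes 0.334% rose and 0.509% fell. With 1 library left out, Slc17a7 passed in 3 of 6 fits (not without 4-AP replicate 3 or control replicate 2 or 3), Nrgn in 2 (only without replicate 1 of either group) and Neurod2 in 1 (without 4-AP replicate 1), and all 3 stayed below 0. Irs4 did not pass without 4-AP replicate 3 or control replicate 2 or 3, nor Magel2 without 4-AP replicate 1 or control replicate 3. With the replicate number as a block, 6 cortical genes passed, and 6 also passed with total counts only and with no filter on low counts. Both lists hold genes that an earlier analysis of these libraries had shown to differ, so their direction is not independent evidence. Avp, Trh, Irs4 and Oxt also had only 3, 14, 6 and 0 counts in control brain. They met the filter on low counts through the 4-AP libraries alone, so for them a rise was set in advance. Control replicate 1 did not stand apart from the other controls in either sum, at 22.3 and 2387 CPM. The lists cover hypothalamic and cortical neurons only, and Magel2 gave 14.1 of the 22.3 CPM. These sums therefore cannot tell which other regions that sample held. The oligodendrocyte sum of control replicate 1 was 3916 CPM, against 2553 and 3406 CPM in the other controls. The part of the regional makeup of the samples in the values of Slc6a11, Agt, Itih3, Mfge8 and Lhx2 was not tested.

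The other reactive genes were scarce as well. Of 36 further genes of reactive astrocytes 13 could be tested, 0 passed edgeR's test (1 had an unadjusted p under 0.05) or DESeq2, and their median log2 fold change was 0.01. Aspg, an asparaginase gene, was at 1.31 (SE 0.51; adjusted p = 0.235) and the prostaglandin synthase gene Ptgs2 at -1.09 (SE 0.55; adjusted p = 0.389 by edgeR's test). Clcf1 and Slc10a6 had 0 counts in every library.

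The remaining lists held 0 calls by edgeR's test, and DESeq2 called 1 microglia gene, Cx3cr1, and 0 of the others. With the replicate number as a block, Cx3cr1 (log2 0.57, adjusted p = 0.0243) and the pan-neuronal genes Rbfox3 (-0.65, adjusted p = 0.0224) and Syn1 (-0.67, adjusted p = 0.0166) passed edgeR's test. Rbfox3 and Syn1 also passed with total counts only and with no filter on low counts, and Syn1 without 4-AP replicate 1. Cx3cr1 and 1 choroid plexus or ependymal gene also passed with no filter. The lists were 8 pan-neuronal genes (median -0.28, Rbfox3 -0.65 and Tubb3 0.08), 6 tested of 9 microglia genes (median 0.12, Cx3cr1 0.57 and C1qa -0.33), 8 oligodendrocyte genes (median 0.07, Mbp -0.18) and 4 precursor genes (median 0.24, Pdgfra 0.28 and Vcan -0.13). The others were 8 tested of 9 endothelial and mural genes (median -0.13, Cldn5 0.62 and Flt1 -0.42), 4 of 6 meningeal genes (median -0.20, Dcn 1.16 and Col1a2 -0.32) and 2 of 9 choroid plexus and ependymal genes, Ttr (log2 4.27, SE 1.51) being the higher. Unadjusted p was under 0.05 for 2 pan-neuronal, 2 microglia, 1 oligodendrocyte, 1 meningeal and 1 choroid plexus gene, beside 13.9% of all tested genes. Trem2, a microglia marker, had 0 counts in every library, and the microglia sum was 444 to 547 CPM in 4-AP and 371 to 434 CPM in control brain. S1pr1, Vim and Cp are also expressed by vessels or choroid plexus, and the endothelial and mural sum was 148 to 182 CPM in 4-AP and 144 to 195 CPM in control brain.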

How the data were processed

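For each of the 6 libraries the deposited file holds raw gene counts as whole numbers. The submitters' processing notes name STAR 2.5.3a, featureCounts and the build mm10. RNA had been RNase R-digested, per the labels' protocols. The sources used here do not state the annotation release, the strandedness or how multi-mapped reads were handled. Identifiers were named from GENCODE M21, of the same assembly; 54809 of 55604 matched, and the rest held 0.01% of counts. Coordinates are 1-based on mm10.

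The filter on low counts was filterByExpr (10 per library, 15 in all); scaling used the trimmed mean of M-values, and edgeR 4.0.16 in R 4.3.3 gave the test (quasi-likelihood, robust, group as the only term; Benjamini-Hochberg over 11388 genes; threshold 0.05). Intervals of fold changes use the standard error derived from the F statistic. All pairs of libraries differed beyond counting noise (lowest chi-square per degree of freedom 7.79). PCR copies of a molecule cannot be told from separate molecules in these counts, so counting intervals and floors cover counting error only. Alternatives were other scalings, DESeq2 1.42.0, other filters, the replicate number as a block and each library left out; leaving out ribosomal RNA and 5 abundant loci was added after seeing the data.

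The members and lists were chosen with earlier results of these data known. Every member is named. Values in every library are given for members that pass, whose groups do not overlap, that have the 3 smallest p per class and direction, or that are defining markers. Slc6a11, Agt, Slc6a9 and Lhx2 were added after their values were seen. From each other list, genes that pass and the 1 with the smallest p in each direction are named, except 1 gene that is not reported here.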

Additional observations from a re-analysis of the deposited data

How the results depend on the processing

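No member was called under 7 alternatives with all libraries, and 0 to 1 when a library was left out, the 1 being Slc6a11 without control replicate 1 (log2 1.14). The number of called genes was 96 in the main analysis, 319 with total counts only (26 higher), 152 with DESeq2 (77 higher), 328 with no filter on low counts (131 higher), 265 with the replicate block (112 higher), and 26 to 159 when a library was left out. Of the other astrocyte genes 0 to 3 were called without 1 library. Total counts only shifted the median of all genes to -0.22 and that of the homeostatic members to -0.12; relative to all genes it was 0.10, beside 0.11 in the main analysis. The homeostatic median ran from 0.06 to 0.13 and the reactive median from -0.13 to 0.30 with each library left out.

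Of 280 member values under the alternatives with all libraries, 13 changed sign, all of members within 0.15 of 0. With total counts only these were Vim (-0.17), Serpina3n (-0.060), Aldoc (-0.20), Gja1 (-0.062), Sox9 (-0.058), Apoe (-0.083), Clu (-0.12), Sparcl1 (-0.17), Mt3 (-0.12), Plpp3 (-0.21) and Id4 (-0.17); with no filter, Aldoc (-0.015) and Plpp3 (-0.016). Of 240 values without 1 library, 22 changed sign. The ranges of those members were -0.19 to 0.71 for Gfap, -0.065 to 0.15 for Vim, -0.071 to 0.48 for Serpina3n, -1.31 to 0.30 for Cp, -0.12 to 0.62 for Aqp4, -0.019 to 0.068 for Aldoc, -0.13 to 0.46 for Sox9, -0.24 to 0.15 for S1pr1, -0.014 to 0.20 for Clu, -0.067 to 0.18 for Sparcl1, -0.012 to 0.30 for Mt3, -0.38 to 0.083 for Hepacam, -0.23 to 0.0059 for Prex2, -0.057 to 0.12 for Plpp3 and -0.17 to 0.23 for Id4. Beyond the smaller number of libraries, the cause was not tested.

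Same-numbered libraries deviated from their group means with correlations of -0.0012, 0.11 and 0.02, and not every library correlated best with its own number, and the submitters call the tissues paired without saying what links them, so the numbers were not treated as pairs; with the replicate block 0 members were called, and of the lists the block added Cx3cr1, Rbfox3, Syn1 and 3 cortical genes. Depth limits Cd44, Osmr, Mt2, Ranbp3l and Slc14a1, which could not be tested.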
